A study of Mus musculus with 30 samples.

Results

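The genes described here are the mouse C-type lectins whose symbols begin with Clec, the Cd209 genes, the Cd300 genes and the Siglec genes other than Siglech. A gene was taken where a probe set carries that symbol and no other, and where several did so, the one with the highest mean over all 30 arrays was read. The rule gave 42 of the 17097 genes with a symbol of their own, covered by 56 probe sets. By known role, 7 are activating pattern receptors, 2 are inhibitory C-type lectins, 12 are glycan uptake receptors with the CD209 family, 7 are ligands of natural killer (NK) cell receptors or their relatives, 6 belong to the CD300 family, 4 are Siglecs, and 4 are secreted or other CLEC genes.

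C-type lectin receptors of dendritic cells and macrophages bind sugars and lipids of microbes and of the body's own cells. Activating members signal through tyrosine-based motifs of their own or of the adaptors encoded by Fcer1g and Tyrobp, and from there through the kinase Syk and the scaffold Card9, whereas inhibitory C-type lectins and many CD300 and Siglec proteins recruit the phosphatases encoded by Ptpn6 and Ptpn11. CD209 proteins are the mouse relatives of human DC-SIGN, and Siglecs recognise sialic acids on cell surfaces.

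RNA was measured on 30 microarrays from DO11.10 RAG2-/- BALB/c mice aged 8 to 10 weeks. Mice without RAG2 cannot rearrange receptor genes and have no mature B cells, and the CD4+ T cells of these mice all recognise the same peptide of ovalbumin (OVA) through a transgene. CD11c+ cells, a magnetic bead selection on an integrin of dendritic cells and some macrophages, and CD4+ T cells were each collected in 5 groups of 3 arrays, at a labelled purity of over 90%. Abatacept mice were primed and given abatacept (10 mg/kg), a fusion of CTLA-4 with an immunoglobulin tail that blocks CD28 costimulation. Control IgG mice were primed and given control IgG (10 mg/kg). Tolerised mice drank water with OVA. Primed mice were immunised under the skin with OVA (100 µg per mouse) in CFA, an oil emulsion with killed mycobacteria. Unimmunised mice had neither. Isolation at 10 days after immunisation is stated for the CD4+ cells. CD11c+ cells came from pooled spleen and lymph nodes in every group. For CD4+ cells the source was axillary nodes (abatacept, control IgG and primed mice), mesenteric nodes (tolerised mice) or nodes pooled with spleen (unimmunised mice), so organ and group cannot be told apart where the tolerised or unimmunised CD4+ arrays are compared. Organ and fraction cannot be told apart either where CD11c+ and CD4+ cells are compared in a group other than the unimmunised one. The labels do not say whether the arrays of a group came from separate mice, and p-values measure the spread between these arrays, which may be technical.

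All levels are log2 signals, with array medians between 4.46 and 4.54. Itgax, which encodes CD11c, averaged between 9.62 and 10.25 in the CD11c+ groups, and Cd3e, a subunit of the T cell receptor complex, averaged between 10.82 and 11.60 in the CD4+ groups. Several arrays stood apart. In CD11c+ cells the Y-linked gene Eif2s3y averaged 2.53 in the abatacept group, read 8.76, 5.92 and 8.20 on the 3 control IgG arrays, and averaged 2.62 in the tolerised, 8.58 in the primed and 2.59 in the unimmunised group. Its SD within a group was at most 0.22 outside the control IgG group. In CD4+ cells the tolerised and primed groups carried it, with means of 8.89 and 8.62. Sex of the mice therefore moves with the group in several comparisons and cannot be told apart from it there. The salivary amylase gene Amy1 exceeded 7 on 5 CD11c+ arrays, namely abatacept replicate 3, control IgG replicates 2 and 3, tolerised replicate 3 and unimmunised replicate 2. The CD4+ unimmunised arrays carried marker genes of other cells despite the labelled purity, where the neutrophil and red pulp macrophage markers averaged 3.75 and 3.48 on CD4+ primed arrays, against 9.91 and 8.68 on CD4+ unimmunised arrays.

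The receptor genes were read mostly at higher levels in the CD11c+ fraction. 30 of the 42 stood above the array median on at least 3 arrays, the condition for testing over both fractions. The other 12 had every group mean below the array medians and were not tested, and they are Cd209f, Cd209g, Cd300lg, Clec2g, Clec2l, Clec2m, Clec3b, Clec4f, Clec11a, Clec12b, Clec14a and Clec18a. Of the 30, 9 passed that condition through CD11c+ arrays alone (Cd209b, Cd209c, Cd209e, Cd300ld, Clec1a, Clec1b, Clec4e, Clec4g and Siglecg) and 1 through CD4+ arrays alone (Clec2e). This favours a difference between the fractions in those 10, so the counts are given as a description. Without the CD4+ unimmunised arrays, 8 of the 42 genes passed on CD4+ arrays, so in the other groups the same holds for most of the 30. In every group but the unimmunised one the fractions also came from different organs, so organ and fraction cannot be told apart. In primed mice, 26 of the 30 were higher in CD11c+ than in CD4+ cells and 1 was lower (adjusted p under 0.05 in limma), where 63.2% of all genes tested passed, 29.1% higher and 34.1% lower. The counts were 25 higher and 2 lower in abatacept mice (68.7% of all genes passed, 35.6% higher and 33% lower), 26 and 2 in control IgG mice (65.7%, 30.6% and 35.1%), 24 and 1 in tolerised mice (60.1%, 31.9% and 28.2%) and 22 and 3 in unimmunised mice (66.4%, 27.8% and 38.6%). Eif2s3y was carried by the CD4+ but not the CD11c+ arrays of tolerised mice, and by the CD11c+ but not the CD4+ arrays of control IgG mice. Sex and fraction cannot be told apart in those groups.

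Clec4n, which encodes the mannan receptor Dectin-2, had 10.71, 10.68 and 10.52 in CD11c+ primed cells, against 2.81, 3.44 and 3.41 in CD4+ primed cells (log2 difference 7.41, SE 0.41, adjusted p = 9.3e-14). Cd300a, an inhibitory receptor for phosphatidylserine, had 10.21, 10.09 and 9.97 in CD11c+ primed cells, against 3.37, 3.26 and 3.22 in CD4+ primed cells (log2 difference 6.81, SE 0.31, adjusted p = 2.9e-15). The arrays of the fractions did not overlap for either gene. The next largest differences in primed mice were those of Clec4a2 (6.25), Cd209d (5.46), Cd300c2 (5.41), Siglece (5.08), Siglec1 (5.02), Cd300lf (4.96), Clec7a (4.69), Cd209a (4.67), Clec4b1 (4.65) and Clec10a (4.54). Clec2i, which encodes an NK receptor ligand of the Clr family, ran the other way, with 6.80, 6.70 and 6.75 in CD11c+ primed cells, against 7.55, 7.16 and 7.52 in CD4+ primed cells (log2 difference -0.66, SE 0.12, adjusted p = 5.7e-05). It was lower in CD11c+ cells in every group but the tolerised one, where the difference was -0.26 (adjusted p = 0.078). Clec2e, another gene of the family, was lower in CD11c+ cells in abatacept (-0.81), control IgG (-0.61) and tolerised mice (-0.75), and Clec5a (-1.40) and Siglecf (-0.70) were lower in unimmunised mice, where the CD4+ arrays carried markers of other cells. Clec2d, a relative of Clec2i and Clec2e whose product is a ligand of an inhibitory NK receptor, averaged 6.64 ± 0.07 in CD11c+ and 6.76 ± 0.23 in CD4+ primed cells (SD, n = 3 each), a difference of -0.13 with a 95% interval of -0.60 to 0.34 that did not pass the test. Clec16a, an endosomal protein gene with no known lectin function, passed in none of the 5 groups.

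**Figure D1:**
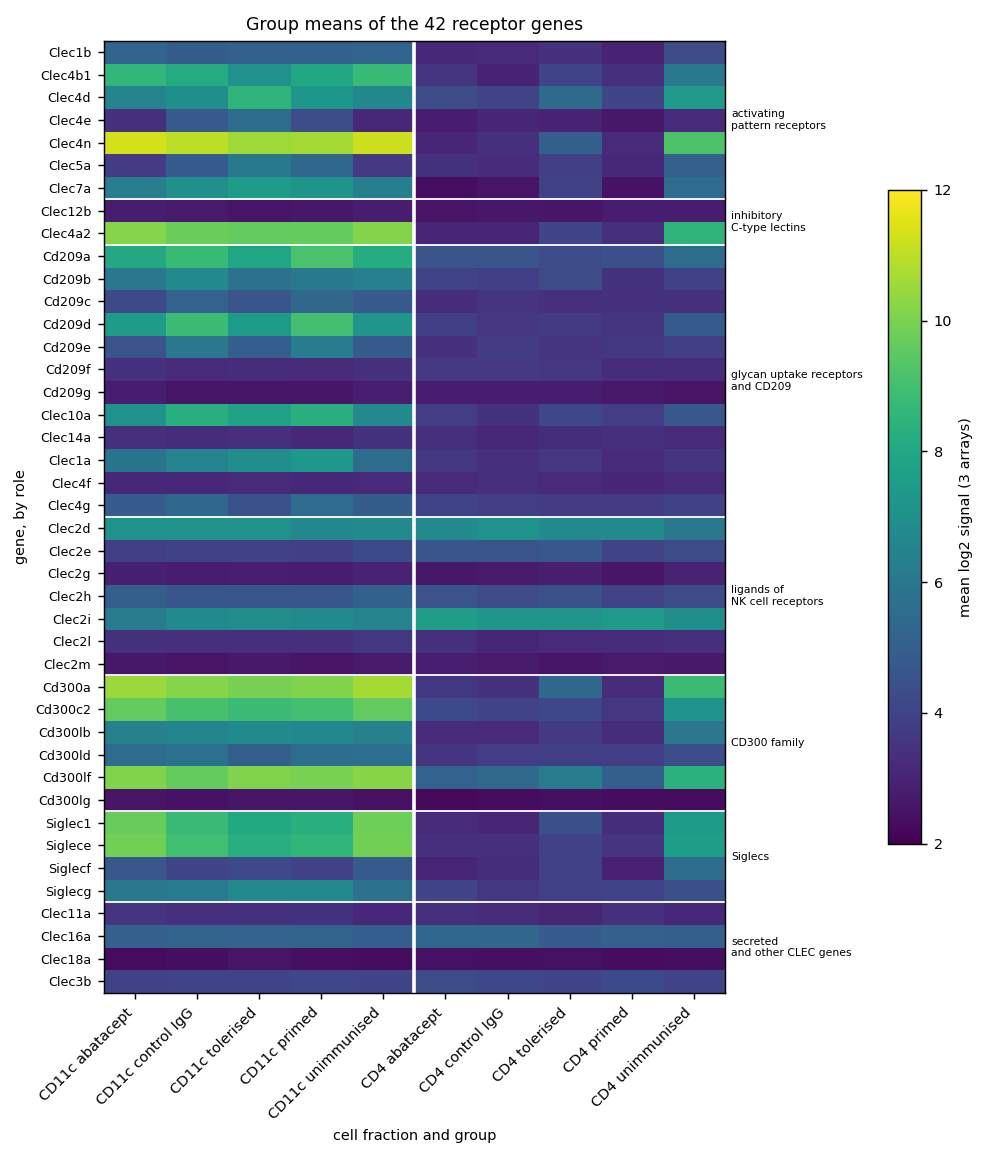
Mean log2 signal (colour, 3 arrays each) of the 42 genes, ordered by role down the page, in the 5 CD11c+ groups (left of the white line) and the 5 CD4+ groups (right). Most genes with signal are brighter in the CD11c+ groups, and the CD4+ unimmunised column is brighter than the other CD4+ columns for Cd300, Siglec and activating receptor genes.

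The comparison of tolerised with unimmunised CD11c+ cells asks whether these receptors differ after the antigen was fed. Of 29 genes tested, 9 were higher and 10 lower in tolerised cells. 48.6% of all genes tested passed, 31.9% higher and 16.7% lower, and the median difference was -0.18 for the 29 genes and 0.10 over all genes. Of the activating pattern receptors 4 of 7 were higher and 2 lower, of the glycan uptake and CD209 genes 2 of 8 were higher, and of the CD300 genes 1 of 5 was higher and 3 lower. Of the Siglecs 1 of 4 was higher and 3 lower. The groups did not overlap for 18 of the 19 called genes, Cd300ld being the exception, and for 92.8% of all called genes, so this count says nothing particular about the receptors.

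Among the activating receptors, Clec4e encodes Mincle, a receptor for the mycobacterial glycolipid trehalose dimycolate. It had 5.60, 4.70 and 6.34 in tolerised cells, against 2.89, 3.27 and 3.26 in unimmunised cells, where all 3 arrays lay below the array median (log2 difference 2.41, SE 0.35, adjusted p = 9.9e-05). Clec4d, which encodes the partner of Mincle, had 8.95, 7.78 and 8.73 in tolerised cells, against 6.40, 6.61 and 6.99 in unimmunised cells (log2 difference 1.82, SE 0.25, adjusted p = 6e-05). Clec5a, a receptor that signals through the Tyrobp product, had 6.48, 5.44 and 6.21 in tolerised cells, against 3.87, 3.47 and 3.67 in unimmunised cells (log2 difference 2.37, SE 0.32, adjusted p = 5.4e-05). For all 3 genes each tolerised array stood above each unimmunised array. The unimmunised arrays of Clec5a, like those of Clec4e, lay below the array median, so no fold is given for these 2 genes. Both entered the test through groups where they were high, so their calls are given as a description. Clec7a, which encodes the beta-glucan receptor Dectin-1, averaged 7.48 ± 0.31 in tolerised cells and 6.32 ± 0.35 in unimmunised cells (SD, n = 3 each; difference 1.16, adjusted p = 0.00016). The other activating receptors to pass were lower. Clec4b1, a receptor that pairs with the Fcer1g product, had 6.79, 7.16 and 7.27 in tolerised cells, against 8.64, 8.80 and 8.88 in unimmunised cells (log2 difference -1.70, SE 0.13, adjusted p = 1.3e-06). Clec4n averaged 10.58 ± 0.23 in tolerised and 11.23 ± 0.02 in unimmunised cells (difference -0.64, adjusted p = 0.00057). Clec1b, which encodes the podoplanin receptor CLEC-2, differed by -0.18 with an interval of -0.53 to 0.16 and did not pass.

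The sialic acid receptors split in the same comparison. Siglec1, which encodes the macrophage receptor CD169, had 7.47, 8.24 and 8.50 in tolerised cells, against 9.83, 9.72 and 9.87 in unimmunised cells (log2 difference -1.74, SE 0.27, adjusted p = 0.00015). Siglece, an inhibitory receptor of myeloid cells, had 8.07, 8.26 and 8.46 in tolerised cells, against 9.86, 9.82 and 9.89 in unimmunised cells (log2 difference -1.59, SE 0.22, adjusted p = 7.1e-05). For both genes every tolerised array lay below every unimmunised array. Siglecf, best known from eosinophils and alveolar macrophages, was lower by a smaller amount (difference -0.64, adjusted p = 0.027). It stood above the array median on 3 of 15 CD11c+ arrays, the fewest that allow testing, so its call is given as a description. Siglecg, which restrains B cell receptor signalling and is also found on dendritic cells, was higher, with 6.66, 6.87 and 6.82 in tolerised cells, against 5.71, 5.55 and 6.03 in unimmunised cells (log2 difference 1.02, SE 0.16, adjusted p = 0.00017). No overlap was seen for Siglecg either.

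The inhibitory receptor gene Clec4a2, which encodes DCIR, was lower in tolerised cells at 9.62, 9.47 and 9.69, against 10.19, 10.06 and 10.23 in unimmunised cells (difference -0.57, adjusted p = 0.00014). Cd300a and the activating receptor gene Cd300c2 were also lower, by differences of -0.72 and -0.76, as was Cd300ld (-0.62, adjusted p = 0.04). Cd300lb, whose product is an activating receptor, was higher (0.49, adjusted p = 0.032), and the inhibitory receptor gene Cd300lf averaged 10.11 ± 0.12 in tolerised and 10.22 ± 0.17 in unimmunised cells and did not pass. Among the uptake receptors, Clec10a, which encodes the galactose-type lectin MGL1, averaged 7.78 ± 0.16 in tolerised and 6.69 ± 0.53 in unimmunised cells (difference 1.09, adjusted p = 0.00069). Clec1a, which encodes the melanin receptor MelLec, was higher by 1.43 (adjusted p = 0.00093). The NK receptor ligand genes Clec2i and Clec2h differed in opposite directions, by 0.49 and -0.41, and both passed.

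Markers of other cell types moved in this comparison too. The 8 red pulp macrophage markers averaged 9.49 in tolerised and 11.01 in unimmunised cells, and 8 of 8 were lower. The neutrophil markers averaged 9.38 in tolerised and 6.77 in unimmunised cells, and 9 of 9 tested were higher. The mature dendritic cell markers averaged 9.43 in tolerised and 7.68 in unimmunised cells, with 6 of 7 tested higher and 1 lower. The monocyte and macrophage markers averaged 8.30 in tolerised and 8.86 in unimmunised cells, with 2 of 9 tested higher and 6 lower. Of the conventional type 1 dendritic cell markers 7 of 8 were higher and 1 lower, and of the T cell markers 5 of 6 tested were higher. Their part in the receptor differences was not tested, and in sorted bulk cells fewer cells of a type and less RNA per cell cannot be told apart.

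**Figure D2:**
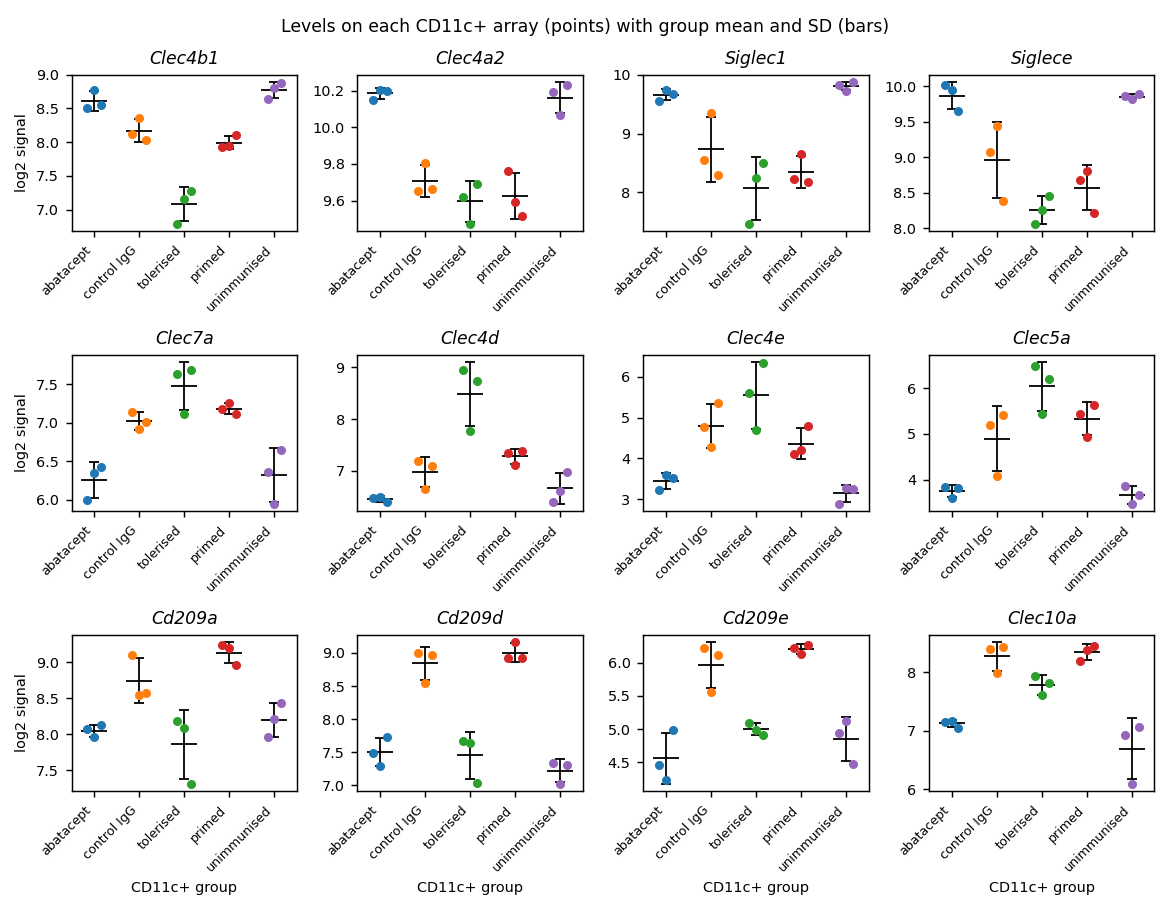
Log2 signal of 12 receptor genes on each CD11c+ array (points), with the group mean and SD (bars, n = 3), in the abatacept, control IgG, tolerised, primed and unimmunised groups. Clec4b1 and Siglec1 are lowest in the tolerised group, Clec4d, Clec4e and Clec5a are highest there, and Cd209d and Cd209e are high in the control IgG and primed groups alone among the 5.

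Primed CD11c+ cells differed from unimmunised cells in 18 of 29 genes, 9 higher and 9 lower, where 38.6% of all genes passed, 25.5% higher and 13.2% lower. The median difference was 0.24 for the 29 genes and 0.09 over all genes. This comparison shares the unimmunised arrays with the one before. The lower genes were Siglec1 (-1.46), Siglece (-1.28), Siglecf (-0.88), Clec4b1 (-0.78), Clec4n (-0.59), Cd300c2 (-0.59), Cd300a (-0.58), Clec4a2 (-0.54) and Clec2h (-0.46), all as log2 differences. The higher genes included Clec1a (1.78), Clec5a (1.66), Clec10a (1.65), Clec4e (1.23), Siglecg (1.01) and Clec7a (0.86). Clec5a stood above the array median on 8 of the 15 CD11c+ arrays, Clec4e on 6 and Siglecf on 3, so the differences of these genes are less certain. Siglec1 had 8.22, 8.66 and 8.17 in primed cells, against 9.83, 9.72 and 9.87 in unimmunised cells. Clec10a had 8.19, 8.38 and 8.45 in primed cells, against 6.92, 6.09 and 7.06 in unimmunised cells. Each primed array lay outside the unimmunised range for both genes, and the groups did not overlap for 96.9% of all called genes. Clec4d did not pass (difference 0.62, interval 0.09 to 1.15). The red pulp macrophage markers averaged 10.02 in primed and 11.01 in unimmunised cells with 8 of 8 lower, and the neutrophil markers 9.21 and 6.77, with 9 of 9 tested higher. The mature dendritic cell markers averaged 9.27 in primed and 7.68 in unimmunised cells, with 6 of 7 higher, and the conventional type 1 dendritic cell markers 8.82 and 7.82, with 7 of 8 higher and 1 lower. The monocyte and macrophage markers averaged 8.50 in primed and 8.86 in unimmunised cells, with 2 of 9 tested higher and 5 lower. The part of these in the receptor differences was not tested. Primed arrays carried Eif2s3y and unimmunised arrays did not. With Eif2s3y as a covariate, an alternative chosen after seeing the data, 0 of the 29 genes and 0 of all 10203 passed by limma. Of the 29, 2 had an unadjusted p under 0.05. As Eif2s3y moves with the group here, this fit cannot tell them apart, and no conclusion is drawn from the 0.

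The remaining higher genes of primed cells were 3 CD209 genes that lie side by side. Cd209a encodes the mouse DC-SIGN homologue, Cd209d encodes SIGNR3 and Cd209e encodes SIGNR4. Their promoters are shown because these neighbours were higher in primed cells than in both unimmunised and tolerised cells, together with that of Cd209b, which encodes SIGNR1 and did not pass, and that of Clec7a on another chromosome. Each is the 250 bases before the transcription start in RefSeq, build GRCm38.p6, written 5′ to 3′ along the gene, and capitals mark the composite element for ETS and IRF factors, GGAA and GAAA with any 2 bases between them on either strand, which reads TTTC and TTCC around 2 bases here.
Cd209a, chr8:3748985-3749234, minus strand: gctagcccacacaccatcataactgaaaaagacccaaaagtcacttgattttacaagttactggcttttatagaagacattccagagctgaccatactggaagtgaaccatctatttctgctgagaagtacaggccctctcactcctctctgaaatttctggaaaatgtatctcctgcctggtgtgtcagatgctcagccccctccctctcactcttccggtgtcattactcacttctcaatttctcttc
Cd209e, chr8:3854287-3854536, minus strand: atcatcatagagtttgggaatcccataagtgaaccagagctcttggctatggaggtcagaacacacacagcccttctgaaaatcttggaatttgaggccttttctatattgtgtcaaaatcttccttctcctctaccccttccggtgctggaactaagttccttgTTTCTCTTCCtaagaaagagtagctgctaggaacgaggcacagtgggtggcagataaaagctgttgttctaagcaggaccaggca
Cd209d, chr8:3878500-3878749, minus strand: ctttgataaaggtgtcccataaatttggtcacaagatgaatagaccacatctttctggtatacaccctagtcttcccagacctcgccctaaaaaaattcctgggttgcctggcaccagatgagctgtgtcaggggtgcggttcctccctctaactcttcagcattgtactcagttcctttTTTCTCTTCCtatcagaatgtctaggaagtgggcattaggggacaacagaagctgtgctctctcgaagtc
Cd209b, chr8:3926842-3927091, minus strand: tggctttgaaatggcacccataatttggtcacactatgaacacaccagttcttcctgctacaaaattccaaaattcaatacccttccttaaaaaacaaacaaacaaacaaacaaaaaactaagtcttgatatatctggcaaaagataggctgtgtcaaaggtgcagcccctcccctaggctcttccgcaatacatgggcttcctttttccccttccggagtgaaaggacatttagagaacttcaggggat
Clec7a, chr6:129472780-129473029, minus strand: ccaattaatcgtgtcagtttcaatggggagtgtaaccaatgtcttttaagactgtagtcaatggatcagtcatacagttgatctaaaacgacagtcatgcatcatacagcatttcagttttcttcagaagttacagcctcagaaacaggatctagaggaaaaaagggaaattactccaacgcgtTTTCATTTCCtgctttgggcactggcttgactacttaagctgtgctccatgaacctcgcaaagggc
The Cd209e and Cd209d promoters hold the same bases, TTTCTCTTCC, starting at position -85 in Cd209e and -70 in Cd209d. Clec7a, for which the table lists 2 starts, holds a match at -66. No complete match lies in the Cd209a and Cd209b windows. The Cd209a window ends in tttctcttc, which is TTTCTCTTCC without its last base, and the base after the window was not read. The element occurs in 2.3% of 32851 promoters of this length and in 4 of the 36 members with a promoter in the table, the fourth being Clec2i. Members were counted once over all their listed starts, so these shares are not in the same unit. Another motif searched, the PU.1 core GAGGAA, occurs in 23.25% of the promoters and in 18 of the 36 members. A match describes the letters and does not show binding.

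Cd209d had 8.92, 9.17 and 8.92 in primed cells, against 7.34, 7.02 and 7.31 in unimmunised cells (log2 difference 1.78, SE 0.18, adjusted p = 1.6e-05). Cd209e had 6.22, 6.13 and 6.27 in primed cells, against 4.94, 5.13 and 4.48 in unimmunised cells (log2 difference 1.36, SE 0.21, adjusted p = 0.00026). Cd209a had 9.23, 9.20 and 8.96 in primed cells, against 7.96, 8.21 and 8.44 in unimmunised cells (log2 difference 0.93, SE 0.21, adjusted p = 0.0037). All 3 primed arrays stood above all 3 unimmunised arrays for each of these genes, and these groups did not overlap for 96.9% of all called genes. Tolerised cells were lower than primed cells in the same 3 genes. Cd209d had 7.68, 7.64 and 7.04 in tolerised cells (log2 difference -1.55, SE 0.18, adjusted p = 0.0008), Cd209a had 8.18, 8.09 and 7.31 (log2 difference -1.27, SE 0.21, adjusted p = 0.007) and Cd209e had 5.09, 4.99 and 4.91 (log2 difference -1.21, SE 0.21, adjusted p = 0.0081). Those tolerised arrays all lay below the primed arrays, and tolerised and primed arrays did not overlap for 100% of all called genes. Against unimmunised cells the tolerised differences were 0.23 for Cd209d (interval -0.16 to 0.61), 0.15 for Cd209e (-0.29 to 0.59) and -0.34 for Cd209a (-0.79 to 0.11), and none passed.

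Tolerised and primed CD11c+ cells differed in 5 of 29 genes, 1 higher and 4 lower, where 2.84% of all genes passed, 1.39% higher and 1.45% lower. Besides the CD209 genes, Clec4b1 was lower in tolerised cells, at 6.79, 7.16 and 7.27, against 7.93, 7.94 and 8.11 in primed cells (log2 difference -0.92, SE 0.13, adjusted p = 0.003). Clec4d was higher, at 8.95, 7.78 and 8.73 in tolerised cells, against 7.34, 7.12 and 7.39 in primed cells (log2 difference 1.20, SE 0.25, adjusted p = 0.02). Primed arrays carried Eif2s3y and tolerised arrays did not. The count was 3 of 29 when the fit held these groups alone. It was 0 by limma with Eif2s3y as a covariate, where 9 had an unadjusted p under 0.05 and 0 of all 10203 genes passed. That covariate moves with the group here, so the fit cannot tell them apart and no conclusion is drawn from the 0.

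Abatacept CD11c+ cells differed from control IgG cells in 16 of 29 genes, 7 higher and 9 lower, where 15.3% of all genes passed, 6.43% higher and 8.86% lower. The genes that were lower in abatacept cells included 5 of 8 glycan uptake and CD209 genes and 3 of 7 activating receptors. They were Cd209e (-1.41), Clec4e (-1.35), Cd209d (-1.34), Clec10a (-1.15), Clec5a (-1.14), Cd209c (-0.92), Clec7a (-0.77), Cd209a (-0.69) and Clec2i (-0.53). Clec4e exceeded the array median on 6 and Clec5a on 8 of 15 CD11c+ arrays. Both entered the test through groups where they were high, so their calls are given as a description. The higher genes were Siglec1 (0.93), Siglece (0.91), Cd300c2 (0.52), Cd300lf (0.49), Clec4a2 (0.48), Clec4b1 (0.44) and Clec2h (0.37). The median difference was -0.16 for the 29 genes and -0.02 over all genes.

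Cd209d averaged 7.50 ± 0.22 in abatacept and 8.84 ± 0.25 in control IgG cells (SD, n = 3 each). Cd209e had 4.46, 4.24 and 4.98 in abatacept cells, against 6.22, 5.57 and 6.11 in control IgG cells (log2 difference -1.41, SE 0.21, adjusted p = 0.0016). Clec10a had 7.15, 7.17 and 7.05 in abatacept cells, against 8.39, 7.98 and 8.43 in control IgG cells (log2 difference -1.15, SE 0.20, adjusted p = 0.0039). Siglece had 10.01, 9.95 and 9.65 in abatacept cells, against 9.07, 9.44 and 8.39 in control IgG cells (log2 difference 0.91, SE 0.22, adjusted p = 0.016). In 16 of the 16 called genes, and in 83.9% of all 1560 genes called in this comparison, the second control IgG array was the one nearest to the abatacept mean. That array also had the lowest Eif2s3y of its group, 5.92. Without it 17 genes passed, and without the third control IgG array 4 did. Leaving out the 5 arrays with Amy1 over 7, which leaves 1 control IgG array that is assumed to vary like the other groups, left 6 genes, all lower. With Eif2s3y as a covariate 0 passed by limma, 2 had an unadjusted p under 0.05, and 0 of all 10203 genes passed. Eif2s3y moves with the group here too, so this fit cannot tell them apart and no conclusion is drawn from the 0. The mature dendritic cell markers averaged 7.64 in abatacept and 9.44 in control IgG cells, with 6 of 7 lower, and the red pulp macrophage markers 10.93 and 10.28, with 4 of 8 higher. Their part in the receptor differences was not tested.

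Set against unimmunised CD11c+ cells, abatacept cells differed in 0 of 29 genes by limma, where 2.34% of all genes passed, 2.1% higher and 0.245% lower, and 1 gene had an unadjusted p under 0.05. Both groups lacked Eif2s3y. Siglec1 had 9.56, 9.74 and 9.68 in abatacept cells, against 9.83, 9.72 and 9.87 in unimmunised cells, a difference of -0.15 with a 95% interval of -0.72 to 0.42. Clec4b1 differed by -0.17 (interval -0.44 to 0.11) and Cd209d by 0.28 (-0.11 to 0.66). Clec5a differed by 0.09 (-0.60 to 0.77) and Clec4e by 0.30 (-0.45 to 1.06), and the intervals of these low genes were wide. Control IgG cells differed from primed cells in 0 of 29 genes by limma, where 0.0196% of all genes passed, and 5 genes had an unadjusted p under 0.05. Cd209d differed by -0.16 between them (interval -0.54 to 0.22) and Siglec1 by 0.38 (-0.19 to 0.95).

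Abatacept cells and tolerised cells, which both lacked Eif2s3y, differed in 16 of 29 genes, 8 higher and 8 lower in abatacept cells, where 37.5% of all genes passed, 16.6% higher and 20.9% lower. Clec5a had 3.84, 3.61 and 3.83 in abatacept cells, against 6.48, 5.44 and 6.21 in tolerised cells (log2 difference -2.29, SE 0.32, adjusted p = 0.00013). The other lower genes were Clec4e (-2.11), Clec4d (-2.03), Clec7a (-1.22), Clec1a (-1.09), Siglecg (-0.78), Clec2i (-0.74) and Clec10a (-0.66). The higher genes were Siglece (1.61), Siglec1 (1.59), Clec4b1 (1.53), Cd300c2 (0.78), Clec4n (0.76), Clec4a2 (0.59), Cd300a (0.54) and Clec2h (0.35). With Eif2s3y as a covariate 16 genes passed as well. The red pulp macrophage markers averaged 10.93 in abatacept and 9.49 in tolerised cells, and 8 of 8 were higher. The monocyte and macrophage markers averaged 9.01 in abatacept and 8.30 in tolerised cells, with 7 of 9 tested higher and 2 lower. The neutrophil markers averaged 7.63 in abatacept and 9.38 in tolerised cells, with 9 of 9 tested lower, and the mature dendritic cell markers 7.64 and 9.43, with 6 of 7 lower and 1 higher. Their part in the receptor differences was not tested.

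**Figure D3:**
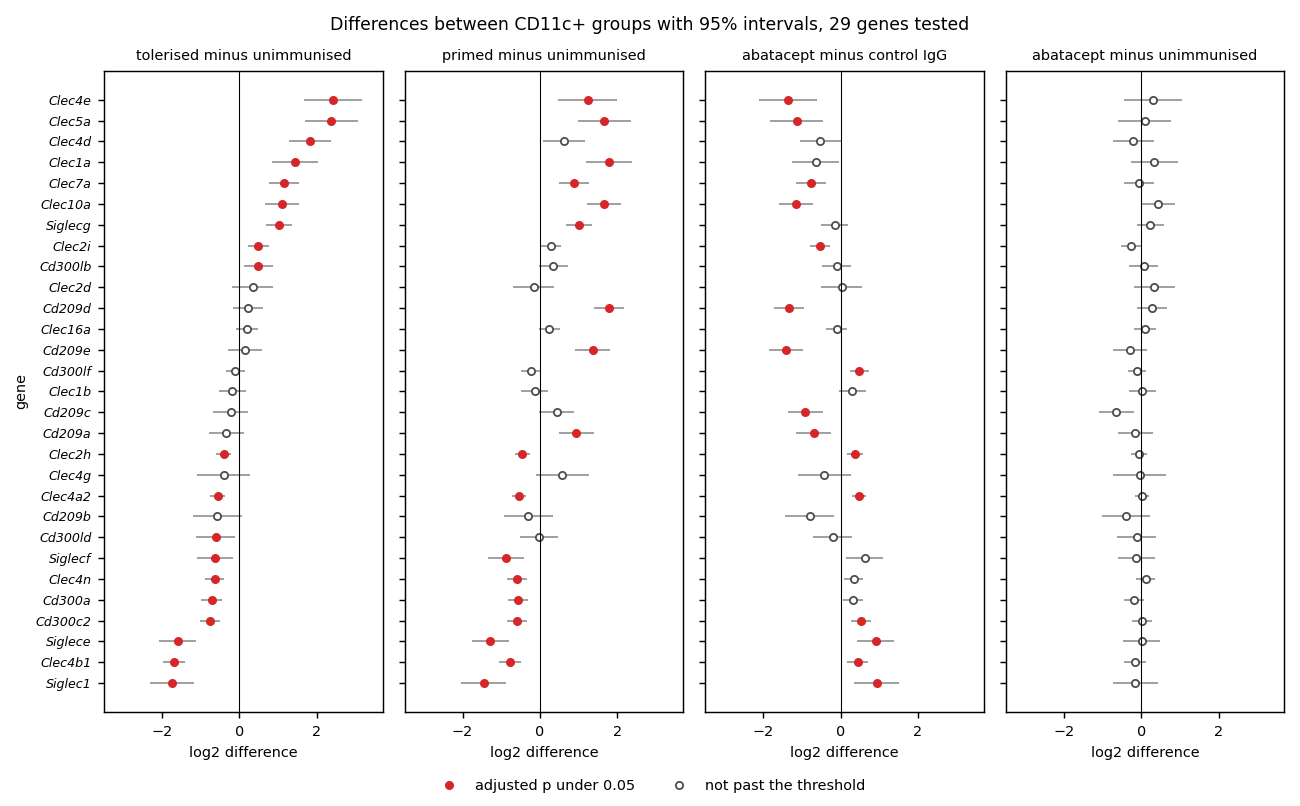
Log2 difference (points) with its 95% interval (lines) of the 29 genes tested in CD11c+ cells, for tolerised minus unimmunised, primed minus unimmunised, abatacept minus control IgG and abatacept minus unimmunised. Filled points passed at an adjusted p under 0.05, which 19, 18, 16 and 0 genes did in the 4 panels from left to right.

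Genes that lie next to each other did not all move the same way. On chromosome 6, RefSeq places Clec4b1, Clec4a2, Clec4n, Clec4d and Clec4e in that order, with 1 other gene between Clec4a2 and Clec4n. In tolerised against unimmunised CD11c+ cells the differences along this row were -1.70, -0.57, -0.64, 1.82 and 2.41, so the first 3 were lower and the last 2 higher, and all 5 passed. The products of Clec4d and Clec4e form a complex. On chromosome 8 the order is Cd209a, Cd209e, Cd209d, Cd209b and Cd209c, followed by the untested Cd209f and Cd209g, and in primed against unimmunised cells the differences of the first 5 were 0.93, 1.36, 1.78, -0.30 and 0.43, of which the first 3 passed. On chromosome 11 the Cd300 genes Cd300a and Cd300c2 were lower and Cd300lb between them higher in tolerised cells. Probe sets of close paralogues such as these can share signal, and cross-hybridisation was not tested.

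**Figure D4:**
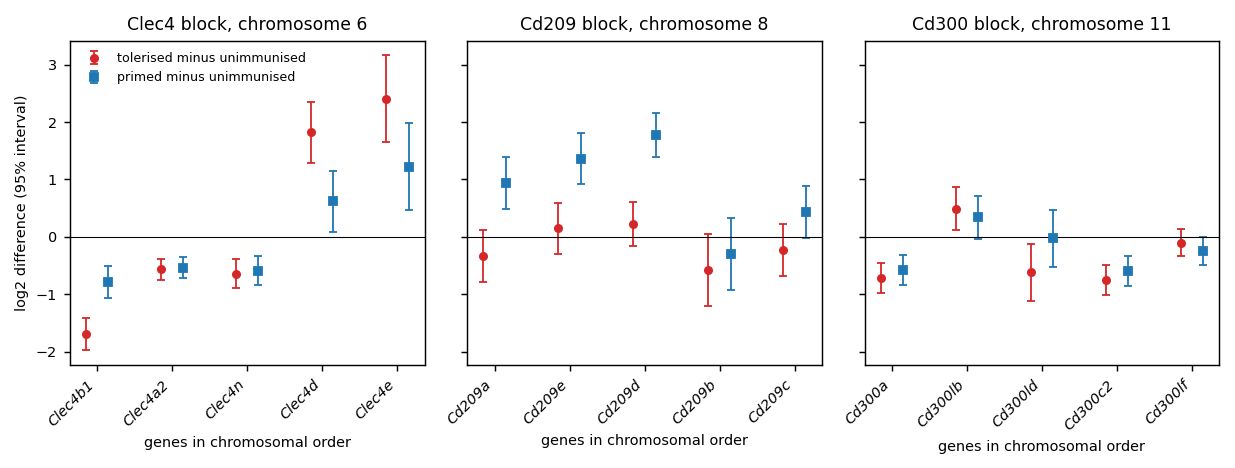
Log2 difference in CD11c+ cells (points, with 95% interval) of the tested genes of 3 blocks in chromosomal order, for tolerised minus unimmunised (circles) and primed minus unimmunised (squares). Clec4d and Clec4e lie above 0 and their Clec4 neighbours below it for tolerised cells, and the intervals of Cd209a, Cd209e and Cd209d exclude 0 for primed cells and include it for tolerised cells.

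11 of the 42 genes have more than 1 probe set, and the other probe sets mostly ran the same way between tolerised and unimmunised CD11c+ cells. The other Clec4n probe set differed by -0.85, against -0.64 for the one used, and the other 2 of Siglec1 by -1.76 and -0.47, against -1.74. Clec4e differed by 0.62 on its other probe set, which lay below the array medians in every CD11c+ group, against 2.41. Between primed and unimmunised cells that probe set differed by 0.09, against 1.23 for the one used. Between abatacept and control IgG cells it differed by -0.10, against -1.35. For Clec4a2 the other 2 differed by -0.82 and 0.28, so 1 of its 3 probe sets ran against the other two. Cd209b and Clec4g, which did not pass, also had probe sets of opposite sign. The other Cd209b probe set differed by 0.06 and the one used by -0.58, and those of Clec4g by 0.28 and -0.41. In primed against unimmunised cells too, the Cd209b probe sets had opposite signs, 0.15 for the other and -0.30 for the one used.

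The genes that carry the signal from these receptors were listed with the members. Of 14 adaptor and signalling genes tested in CD11c+ cells, 6 were higher and 2 lower in tolerised than in unimmunised cells, where 31.9% of all genes were higher and 16.7% lower, with a median difference of 0.07 against 0.10 over all genes. Prkcd, the kinase between Syk and Card9, was higher, with a difference of 1.01, as were the phospholipase gene Plcg2 (0.43) and the phosphatase gene Ptpn11 (0.35), while the adaptor gene Fcer1g was lower (-0.57). In abatacept against control IgG cells 2 of the 14 were higher and 1 lower, where 6.43% of all genes were higher and 8.86% lower, with Fcer1g at 0.46, Syk at 0.36 and Prkcd at -0.72. Against unimmunised cells, abatacept cells differed in 0 of the 14 by limma, where 2.34% of all genes passed, and 1 had an unadjusted p under 0.05. Beside that share the 0 says nothing particular about the signalling genes. Of 14 lectin and Siglec genes under other symbols, 9 were higher and 2 lower in tolerised than in unimmunised cells, beside the same 31.9% and 16.7% of all genes. Ly75, which encodes the uptake receptor DEC-205, differed by 2.39, the early activation marker gene Cd69 by 1.75, Cd93 by 1.61 and Cd302 by -1.33. In abatacept against control IgG cells 1 of the 14 was higher and 3 lower, beside 6.43% and 8.86% of all genes. Mgl2, the close relative of Clec10a, differed by -2.27, Ly75 by -1.23, the NK receptor subunit gene Klrd1 by -0.45 and Cd302 by 0.66.

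In CD4+ cells 21 of the 42 genes were tested, but 8 when the unimmunised arrays were left out, so most of the 21 entered through the group where they were high and had to differ. Their counts are given as a description. Primed against unimmunised cells gave 2 higher and 16 lower genes, where 47.4% of all genes passed, 23.3% higher and 24.2% lower. Tolerised against unimmunised cells gave 1 higher and 15 lower, where 49.5% passed, 20.3% higher and 29.3% lower. Clec4n had 6.72, 4.81 and 3.52 in tolerised cells and 2.81, 3.44 and 3.41 in primed cells, against 9.05, 9.36 and 9.23 in unimmunised cells. Siglece had 4.14, 3.63 and 4.11 in tolerised cells and 3.19, 3.88 and 3.41 in primed cells, against 7.43, 7.67 and 7.59 in unimmunised cells. The unimmunised arrays stood above all others for both genes, with differences of -5.99 and -4.07 for primed against unimmunised cells. The T cell markers averaged 10.00 in tolerised, 10.27 in primed and 8.81 in unimmunised CD4+ arrays, while the red pulp macrophage markers averaged 4.38, 3.48 and 8.68 and 8 of 8 were lower in tolerised and in primed cells. Tolerised and primed CD4+ arrays also carried Eif2s3y and the unimmunised arrays did not. The part of either in the receptor differences was not tested. Clec2d and Clec2i were the genes that were higher in primed cells. Clec2d had 6.95, 6.50 and 6.83 in primed cells, against 6.07, 5.75 and 6.26 in unimmunised cells (log2 difference 0.74, SE 0.18, adjusted p = 0.0048). The arrays did not overlap, as for 97.2% of all called genes. Clec2d was also the gene that was higher in tolerised cells (log2 difference 0.67, SE 0.18, adjusted p = 0.0082).

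Tolerised CD4+ cells were higher than primed CD4+ cells in 5 of 21 genes and lower in 0, where 6.24% of all genes passed higher and 8.43% lower, 14.7% in all. The 5 were Cd300a (2.01), Clec4n (1.79), Clec7a (1.49), Siglecf (1.07) and Clec5a (0.77). In that order they exceeded the array median on 5, 5, 4, 4 and 3 of 15 CD4+ arrays. Most of the 21 genes entered the test through the unimmunised arrays, which are not compared here, so this count too is given as a description. Cd300a had 6.27, 5.33 and 4.28 in tolerised cells, against 3.37, 3.26 and 3.22 in primed cells (adjusted p = 0.0047). The tolerised arrays lay above the primed arrays for this gene, and these groups did not overlap for 97.6% of all called genes. 5 of 8 red pulp macrophage markers were also higher in tolerised cells, and the mast cell and basophil markers averaged 5.62 in tolerised and 3.24 in primed cells, with their part not tested. Without the CD4+ unimmunised arrays fewer members exceeded the array median on 3 arrays and were tested. The count was then 0 of 8 by limma, where 4 had an unadjusted p under 0.05. With the unimmunised arrays, leaving out 1 array at a time, the count ran from 3, without primed replicate 2, to 12, without tolerised replicate 3. Abatacept and control IgG CD4+ cells differed in 0 of 21 genes by limma, where 16.7% of all genes passed, 3.33% higher and 13.4% lower, and 1 gene had an unadjusted p under 0.05. That gene was Clec2i, chosen after its values were seen, with 7.78, 7.39 and 7.55 in abatacept cells, against 7.28, 7.25 and 7.25 in control IgG cells (adjusted p = 0.09).

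The difference between abatacept and control IgG cells was tested for being unequal in the CD11c+ and CD4+ fractions, as an interaction term. In 5 of 30 genes (Cd209d, Clec10a, Clec5a, Cd209e and Clec2i) it was lower in CD11c+ cells and in 0 higher, where 14.3% of all genes passed, 9.29% higher and 4.97% lower. The count was 12 with array weights, 8 with the replicate block, 8 without the arrays with Amy1 over 7 and 10 without CD11c+ control IgG replicate 2. For tolerised against primed cells it was lower in CD11c+ cells in 6 genes (Cd209a, Cd209d, Cd209e, Cd300a, Clec4b1 and Clec4n) and higher in 0, where 11.2% of all genes passed, 6.27% higher and 4.94% lower. That count was 13 without CD4+ tolerised replicate 3. Clec4b1, whose CD4+ difference was 0.65, exceeded the array median on 3 of 15 CD4+ arrays, so that difference is uncertain. On CD4+ arrays, Cd209d, Clec10a and Clec5a stood above the array median on 3 of 15 and Cd209e on 0. With so little CD4+ signal, the interaction of these genes mostly restates their CD11c+ difference. Clec10a averaged 7.12 ± 0.06 in abatacept and 8.27 ± 0.25 in control IgG CD11c+ cells, and 3.80 ± 0.44 in abatacept and 3.45 ± 0.50 in control IgG CD4+ cells (SD, n = 3 each).

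**Figure D5:**
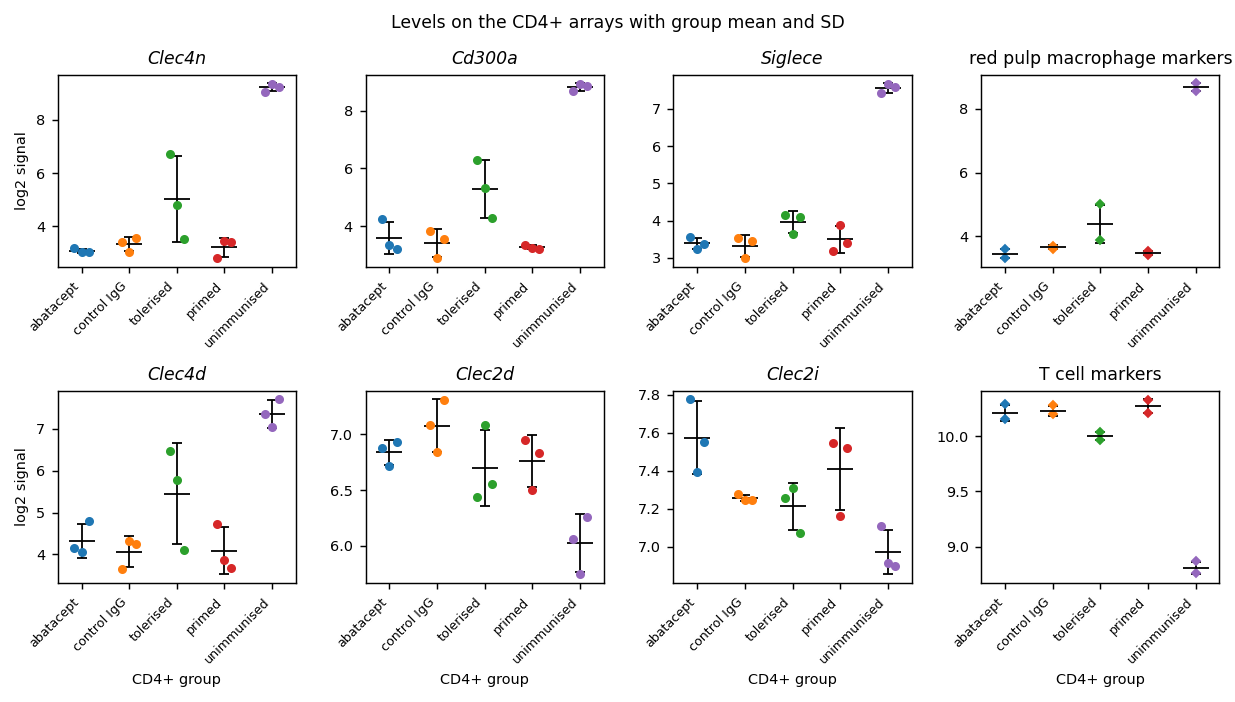
Log2 signal of 6 receptor genes on each CD4+ array (circles) with group mean and SD (bars, n = 3), and the level of 2 marker lists, for which the diamonds are the lowest and highest array means of a group. Clec4n, Cd300a, Siglece and Clec4d are high in the unimmunised group together with the red pulp macrophage markers, and the T cell markers are lowest there.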

How the data were processed

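Total RNA was measured on 30 Affymetrix mouse arrays, 3 for each of 10 groups that were assigned from the sample titles. The authors deposited log2 values for 45118 probe sets, made with RMA per the submitters' processing notes; no version or further setting is given in the sources used here. The deposited values had column medians of 4.46 to 4.54, and no further normalization was applied. The number of arrays limits the precision, and a group of 3 gives a coarse estimate of spread. Genes were named through the platform annotation, in which 28898 probe sets carry 1 symbol, 551 several and 15669 none, and only those with 1 were used.

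A gene was tested where it exceeded the array median on at least 3 arrays of the fit. Comparisons within a fraction were fitted on its 15 arrays, and comparisons of fractions on all 30, with lmFit and eBayes in limma 3.58.1 (R 4.3.3) without covariates. P-values were adjusted by Benjamini-Hochberg over all 10203 genes tested in CD11c+ cells, 10322 in CD4+ cells or 10838 in both, and a gene was called at an adjusted p under 0.05. The fits were tested on simulated data. Same-numbered arrays of the groups compared did not deviate together (correlations from -0.20 to 0.21, never over 0.1 in all 3 pairs), so replicate numbers were not treated as pairs. The rule named all called members where 12 or fewer were called, and otherwise the 12 with the largest rise and the 12 with the largest fall. It was not followed for CD11c+ against CD4+ cells outside primed mice, where the lower genes alone are named, and for the CD4+ comparisons with unimmunised mice, which are given by count with examples. It also lists 24 genes to be named with their levels in any case, of which 19 are members and 5 (Clec9a, Clec4a4, Clec12a, Cd300c and Cd300e) are not analysed here. Members, lists and tests were chosen with earlier results of these data known. Promoters come from RefSeq on GRCm38.p6, and motifs were searched on both strands. The alternatives were other filters, probe set rules, normalization, array weights, a replicate block, fits on the groups compared alone and leaving out arrays.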

Additional observations from a re-analysis of the deposited data

Results flagged for a closer look

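Differences between groups that were not the same in the 2 cell fractions were found for 11 of the gene and comparison pairs, by the interaction term of a limma fit over all 30 arrays (adjusted p under 0.05). For abatacept against control IgG, 5 of 30 genes had a lower difference in CD11c+ than in CD4+ cells and 0 a higher one, where 14.3% of all genes passed, 9.29% higher and 4.97% lower. They were Cd209d (-1.67, from -1.34 in CD11c+ and 0.34 in CD4+ cells), Clec10a (-1.50, from -1.15 in CD11c+ and 0.35 in CD4+ cells), Clec5a (-1.34, from -1.14 in CD11c+ and 0.20 in CD4+ cells), Cd209e (-1.08, from -1.41 in CD11c+ and -0.33 in CD4+ cells) and Clec2i (-0.85, from -0.53 in CD11c+ and 0.32 in CD4+ cells), each value a log2 difference. For tolerised against primed, 6 genes had a lower difference in CD11c+ cells and 0 a higher one, where 11.2% of all genes passed, 6.27% higher and 4.94% lower. They were Cd300a (-2.16, from -0.15 in CD11c+ and 2.01 in CD4+ cells), Clec4n (-1.85, from -0.06 in CD11c+ and 1.79 in CD4+ cells), Cd209d (-1.69, from -1.55 in CD11c+ and 0.14 in CD4+ cells), Clec4b1 (-1.57, from -0.92 in CD11c+ and 0.65 in CD4+ cells), Cd209a (-1.14, from -1.27 in CD11c+ and -0.13 in CD4+ cells) and Cd209e (-1.09, from -1.21 in CD11c+ and -0.12 in CD4+ cells). In this comparison 8 of 8 red pulp macrophage markers passed the same test in the same direction. In the abatacept comparison 5 of 7 mature dendritic cell markers were lower by this test. Eif2s3y differed between the groups compared in CD11c+ cells in both comparisons, where it averaged 2.62 in tolerised and 8.58 in primed CD11c+ cells, against 8.89 in tolerised and 8.62 in primed CD4+ cells. The part of these in the differences was not tested. Clec4b1 exceeded the array median on 3 of 15 CD4+ arrays, so its CD4+ difference is uncertain. Cd209d, Clec10a and Clec5a stood above the array median on 3 of 15 CD4+ arrays and Cd209e on 0. With so little CD4+ signal, the interaction of these genes mostly restates their CD11c+ difference.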

How the results depend on the processing

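The count of members called stayed within 1.5 times of the reported one without a filter, with the mean of all probe sets and, except where given here, under the other alternatives. Array weights gave 1 gene, lower, for control IgG against primed CD11c+ cells, and 12 for the abatacept interaction. Quantile normalization once more gave 1 gene for abatacept against control IgG in CD4+ cells. Fits on the groups compared alone gave 3 for tolerised against primed CD11c+ cells and 0 of 6 for the same comparison in CD4+ cells, which was also 0 of 8 without the CD4+ unimmunised arrays, since fewer members then exceeded the array median on 3 arrays. The replicate block gave 8 for the abatacept interaction and changed no other count by over 1.5 times. Without the 5 arrays with Amy1 over 7, abatacept against control IgG gave 6 and its interaction 8. Of these, the fits with Eif2s3y as a covariate and those without salivary or CD4+ unimmunised arrays were chosen after seeing the data.

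With Eif2s3y as a covariate, whose spread within a group came almost wholly from the 3 control IgG arrays, 0 members and 0 of all 10203 genes passed in limma in primed against unimmunised, tolerised against primed and abatacept against control IgG CD11c+ cells, and 18 differences changed sign. For primed against unimmunised these were Siglec1 0.80, Siglece 0.070, Siglecg -0.23, Clec4b1 0.044, Clec4n 0.26, Clec5a -1.03, Cd209a -0.093, Cd209e -0.12 and Clec2h 0.082. For tolerised against primed it was Cd209e, at 0.26. For abatacept against control IgG they were Siglec1 -0.99, Siglece -0.25, Clec4b1 -0.26, Clec5a 1.16, Cd209a 0.18, Cd209c 0.19, Clec2h -0.088 and Clec2i 0.23. In these 3 comparisons Eif2s3y otherwise moves with the group, so the slope of the covariate rests almost wholly on the control IgG arrays. The fit cannot tell sex and group apart, and no conclusion is drawn from the 0 or from the signs. The counts for tolerised against unimmunised and abatacept against tolerised were 19 and 16 with this covariate too.

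Leaving out 1 array at a time, the counts in CD11c+ cells ran from 16 to 21 for tolerised against unimmunised, 17 to 20 for primed against unimmunised, 4 to 6 for tolerised against primed, 4 to 17 for abatacept against control IgG and 15 to 17 for abatacept against tolerised, and were 0 throughout for abatacept against unimmunised and control IgG against primed. In CD4+ cells they ran from 11 to 16 for tolerised against unimmunised (11 without unimmunised replicate 1), 12 to 18 for primed against unimmunised (12 without unimmunised replicate 1), 3 to 12 for tolerised against primed and 0 for abatacept against control IgG. For CD11c+ against CD4+ cells they ran from 23 to 28 over the 5 groups. For the interactions they ran from 4 to 10 for abatacept (10 without CD11c+ control IgG replicate 2) and 5 to 13 for tolerised against primed (13 without CD4+ tolerised replicate 3). Genes near the array median have little signal over background, and their differences are the least certain.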
